A study of Mus musculus with 4 samples.

Results

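Long noncoding RNAs that are kept in the nucleus or have been studied in the retina were followed in RNA pulled down with an antibody to YTHDF2 from newborn mouse retina. The 10 genes, chosen by symbol from the 52550 genes of the count table, were Malat1, Neat1, Miat, Meg3, Rian, Mirg, Kcnq1ot1, Peg13, Tug1 and Six3os1. All 10 passed the filter on low counts, as did 13632 genes in all. The retinas came from wild type C57BL/6 mice at postnatal day 0 (P0) and were taken apart with papain. Each of 2 replicates gave a library of the RNA before pulldown (input) and a library of the RNA recovered with the antibody (RIP), so that there were 4 libraries. All groups share genotype, strain, age and tissue, and their labels differ by the pulldown alone. The number of animals per replicate is not given in the sources used here, and a pulldown with control IgG was not analysed here. The comparison asks which transcripts were held by YTHDF2, and enrichment over input is the measure of it. RNA was not separated into nuclear and cytoplasmic fractions, so nuclear location is background and not a result.

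YTHDF2 is a mainly cytoplasmic reader protein that binds N6-methyladenosine (m6A) and speeds the decay of the transcripts that carry it. Long noncoding RNAs are transcribed by RNA polymerase II and often spliced, but encode no known long protein. Malat1 lies in nuclear speckles, where splicing factors are stored, and carries well-studied m6A sites. Neat1 is the scaffold of paraspeckles, and Miat (also called Gomafu) forms a nuclear domain of its own in neural cells. Meg3, Rian and Mirg are made from the maternal chromosome of the Dlk1-Dio3 imprinted domain, while Kcnq1ot1 and Peg13 are made from the paternal chromosome of their domains. Tug1 was first described as a transcript needed for photoreceptor development, and Six3os1 is read from the strand opposite the eye-field gene Six3.

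Several of these RNAs carry sequence elements that set them apart from ordinary mRNA. Malat1 and Neat1 are not polyadenylated at the end of their long forms. Their 3′ end folds into a triple helix in which U-rich stretches clasp an A-rich tract. These elements are shown because they stand where an mRNA has its poly(A) tail, with the U-rich stretches (written as T) and the A-rich tract in capitals. The Malat1 element lies at chr19:5795982-5796077 and the Neat1 element at chr19:5824708-5824807, both on the minus strand of GRCm38 and both exonic. The Neat1 element ends the annotated transcript (positions 20672 to 20771 of 20771 nt). The Malat1 element covers positions 6596 to 6691 of 6983 nt, so the annotated transcript runs past it.
Malat1: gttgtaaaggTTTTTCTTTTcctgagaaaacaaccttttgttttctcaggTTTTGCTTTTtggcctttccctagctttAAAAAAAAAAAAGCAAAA
Neat1: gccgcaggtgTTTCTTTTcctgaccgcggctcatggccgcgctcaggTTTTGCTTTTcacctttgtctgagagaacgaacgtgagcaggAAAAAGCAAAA

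Miat holds repeats of TACTAAC, which matches the intron branch point sequence that splicing factor SF1 binds. A stretch with 3 copies in capitals lies in an exon at chr5:112216752-112216812 on the minus strand.
Miat: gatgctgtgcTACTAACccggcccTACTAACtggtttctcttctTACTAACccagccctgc
The longest annotated Miat transcript held 6 copies of TACTAAC. Among 13619 tested transcripts, 2 (0.0147%), Miat included, held at least as many. A single copy or more was present in 8.23% of these transcripts. Kcnq1ot1 held 4 copies in its 93092 nt, Neat1 held 1, and the other 7 members held none. Only the strand of the transcript was searched.

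GGACT, a core form of the sequence at which m6A is written, was counted on the same strand. It occurred in 90.04% of tested transcripts, with a median of 1.01 sites per kb. All 10 members held it, from 0.247 per kb in Rian (2 sites in 8089 nt) to 2.07 per kb in Miat (19 sites in 9163 nt). Peg13, the member with the highest RIP-to-input ratio, held 5 sites (1.06 per kb), close to the median. The closest pair of sites in Peg13 is shown with GGACT in capitals, at chr15:72810007-72810124 on the minus strand, within its only exon.
Peg13: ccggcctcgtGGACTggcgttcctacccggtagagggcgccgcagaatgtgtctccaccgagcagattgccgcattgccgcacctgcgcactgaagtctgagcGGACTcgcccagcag
A match to these letters is not a measured m6A site. Across tested genes the log2 fold change of RIP over input had a Spearman correlation of 0.112 with GGACT sites per kb and of 0.485 with transcript length, given as descriptions over genes that share the same 4 libraries.

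The inputs had 39499994 and 36236531 counts in total, and the RIP libraries 19530226 and 24903212. Ribosomal RNA-overlapping genes AY036118 and CT010467.1 took 54.99% to 55.53% of input counts and 85.35% to 87.85% of RIP counts, which left 2083594 to 4175459 counts per library on protein-coding genes. Markers of P0 retina were present in every library (10 of 10 genes, summed level 297.5 to 411.4 CPM, counts scaled to library size). Of the lens markers 3 of 5, of the pigment epithelium markers 4 of 5, and of the red blood cell markers 1 of 4 were at 0 in every library, and these lists summed to at most 0.990 CPM. The 4 vessel markers, none at 0 throughout, summed to 32.3 to 33.4 CPM in the inputs and 65.4 to 67.2 CPM in the RIP libraries, and the 4 microglia markers to 1.55 to 2.76 and 2.85 to 4.20 CPM. The part of these cells in the results was not tested. Ythdf2 itself had log2 fold change 0.26 (SE 0.47), with -0.25 and 1.05 without input replicates 1 and 2 in turn, which does not test the pulldown of its protein.

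The 2 input libraries stood apart from each other more than the 2 RIP libraries did. Among the 6858 genes that had 50 or more counts in each library, the median absolute log2 difference was 0.56 for the input pair and 0.19 for the RIP pair. The input difference (replicate 2 minus replicate 1) had a Spearman correlation of -0.622 with GC content and of 0.397 with transcript length, against 0.00333 between the RIP difference and GC content. The inputs of the members were farther apart than their RIP libraries in 8 of 10 cases, Neat1 and Rian being the exceptions. The share over all tested genes was not counted, so this is not a result about the members. Member values that turn on 1 input are therefore also given without it.

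**Figure D1:**
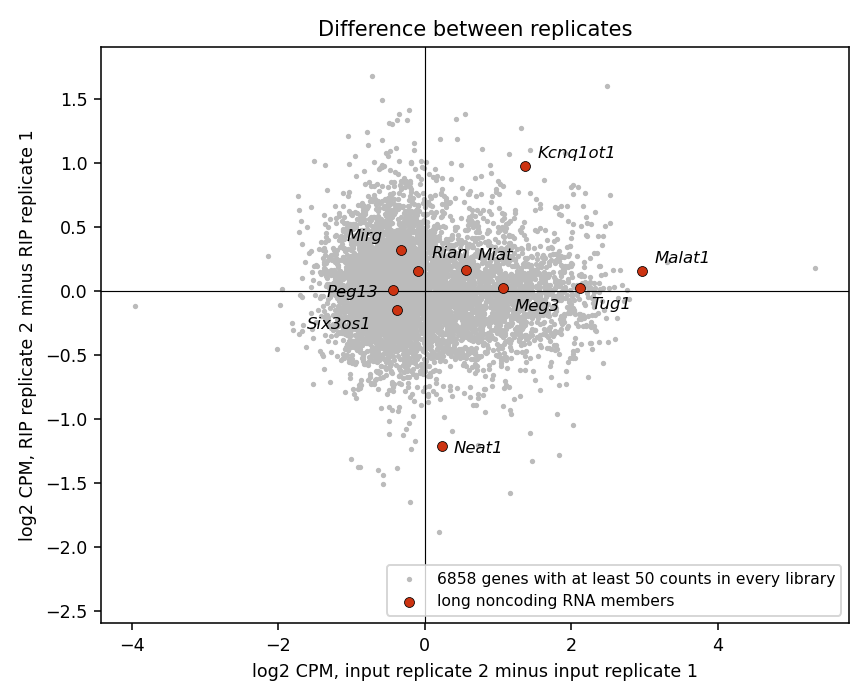
Each point is a gene; the x axis gives the log2 CPM difference between the inputs and the y axis that between the RIP libraries (replicate 2 minus replicate 1). Grey points are the 6858 genes that had 50 or more counts in each library and red points are the 10 members, with Malat1 (2.97) and Tug1 (2.12) far to the right and Neat1 (-1.21) low.

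Peg13 was the only member called enriched in the RIP libraries and Malat1 the only member called depleted. Enriched means a log2 ratio of RIP to input no lower than 1 and depleted a ratio of -1 or lower, each at an unadjusted p below 0.05 by edgeR's quasi-likelihood test. Thus 1 of 10 members was enriched, beside 9.43% of all tested genes, and 1 of 10 was depleted, beside 17.2%. At an adjusted p below 0.05, 1 member (Peg13) was higher in RIP, beside 3.48% of tested genes, and 0 were lower, beside 9.78%. Without adjustment 1 member (Malat1) was lower by edgeR, DESeq2 called 0 members depleted, and edgeR's exact test put Malat1 at an adjusted p of 0.0414. With the replicate block 721 genes in place of 474 were higher at that adjusted p, and 0 members were. These shares do not set the members apart from the background.

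The members' log2 fold changes ran from -2.09 to 1.23, with 3 above 0 and 7 below, and a median of -0.39, beside -0.05 over all tested genes. Of all tested genes 6558 lay above 0 and 7074 below, and of 674 other long noncoding genes 206 and 468. Scaling by library size alone moved the median of all tested genes to 0.27 and that of the members to -0.081, gave 2357 enriched and 1725 depleted genes in place of 1286 and 2344, and turned the sign of 1 member, Six3os1. Both RIP libraries lay above both inputs for 3 members (Peg13, Tug1 and Rian), as for 29.6% of tested genes. Both lay below for 3 members (Neat1, Mirg and Miat), as for 31.3%. In the other 4 (Malat1, Meg3, Kcnq1ot1 and Six3os1) the RIP and input values overlapped. An exact permutation test of 2 against 2 libraries cannot give a p below 0.333, so every p printed here comes from a model fitted across all genes.

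**Figure D2:**
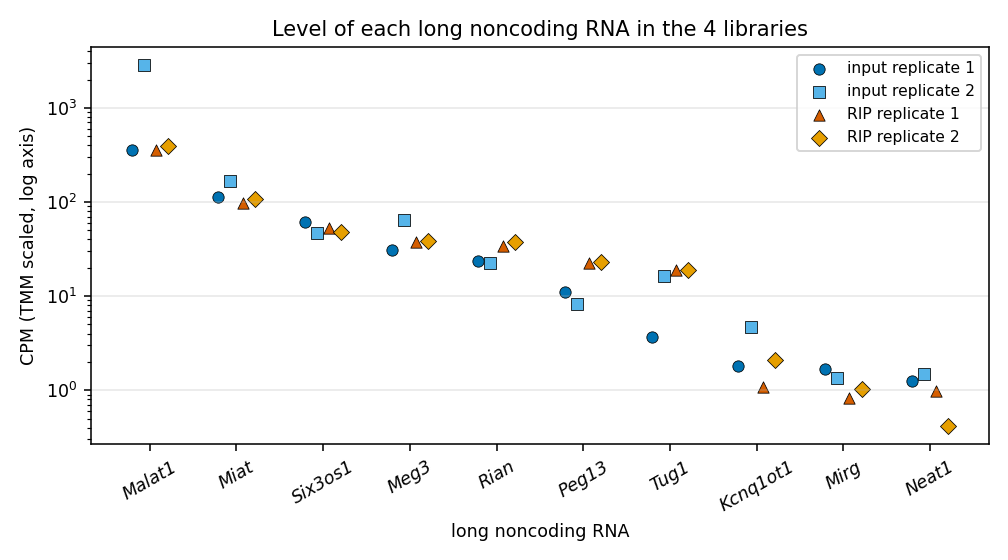
Level of each member in CPM, scaled by the trimmed mean of M-values (TMM), on a log axis, with 1 point per library, ordered by the mean of the RIP libraries. The RIP points lie close together in most genes, and the inputs of Malat1 (360 and 2823 CPM) and Tug1 (3.72 and 16.2 CPM) lie far apart.

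**Figure D3:**
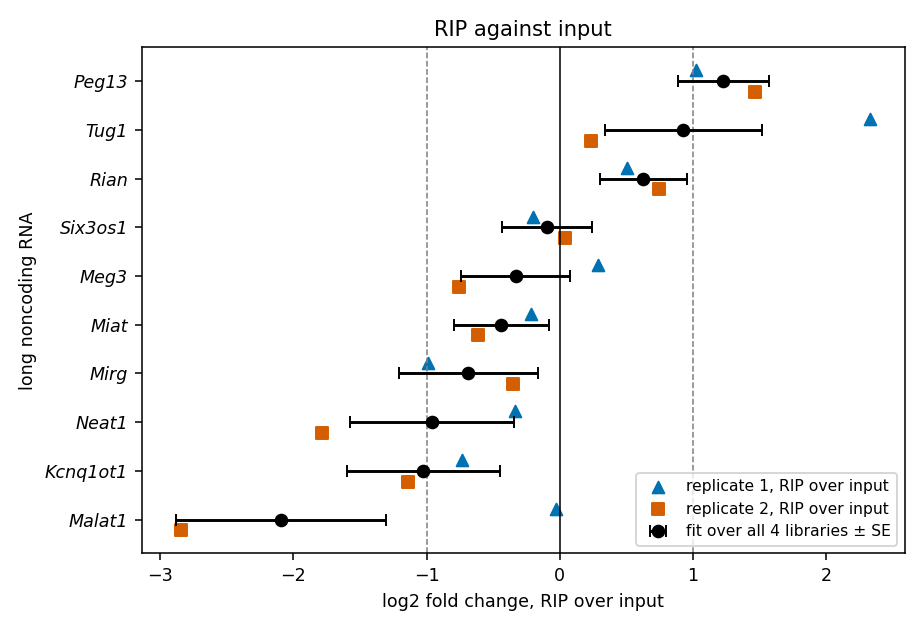
Log2 fold change of RIP over input (x axis) for each member (y axis). Black points and bars give the fit over 4 libraries ± SE, triangles replicate 1 and squares replicate 2, and dashed lines mark -1 and 1. The replicates of Malat1 (-0.027 and -2.84) and Tug1 (2.33 and 0.24) lie farthest apart.

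The nuclear body RNAs were Malat1, Neat1 and Miat, and all 3 had negative fold changes. Malat1 (ENSMUSG00000092341, chr19:5795690-5802672, minus strand, a lincRNA of 6983 nt in 1 exon) had 360 and 2823 CPM in the inputs and 353 and 393 CPM in the RIP libraries. Input replicate 2 stood alone, and the other 3 libraries lay within a narrow band. The fitted log2 fold change was -2.09 (SE 0.79, adjusted p = 0.116, edgeR), and Malat1 was called depleted at the unadjusted limit. In replicate 1 the log2 ratio of RIP over input was -0.027 and in replicate 2 it was -2.84. Without input replicate 2 the log2 fold change was 0.046, and without input replicate 1 it was -2.92. The depletion of Malat1 was thus decided by 1 input library. Without RIP replicate 1 or 2 it was -1.98 or -2.15 and no longer called. Over the alternatives that kept all 4 libraries its log2 fold change ran from -2.17 to -1.16 and its adjusted p from 0.0344 to 0.546, with the smallest change in limma fits of FPKM.

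The difference of Malat1 between the inputs, 7.85-fold, was among the widest in the data. Of the 6858 genes that had 50 or more counts in each library, 3 (0.0437%) were wider, namely the histone gene Hist3h2a, the transcription factor gene Sox12 and Golga4, which encodes a golgin of the trans-Golgi network. These genes were named after their values were seen. Sox12 differed the other way, with 2660 counts in input replicate 1 and 176 in replicate 2. Malat1 made up 89.47% of the members' counts in input replicate 2 and 57.01% to 59.14% in the other libraries. Malat1 was the most abundant member in each library, and higher than at least 98.1% of tested genes per length.

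Neat1 (ENSMUSG00000092274, chr19:5824708-5845478, minus strand, a lincRNA of 20771 nt) had few counts. There were 42 and 51 input counts and 25 and 10 RIP counts, or 1.26 and 1.49 CPM against 0.991 and 0.416 CPM. Both RIP values lay below both inputs, with RIP replicate 2 the lowest. Neat1 did not pass, at a log2 fold change of -0.96 (SE 0.62, adjusted p = 0.337, edgeR). It was -1.62 without RIP replicate 1 and -0.39 without RIP replicate 2. The 10 counts of RIP replicate 2 have an exact Poisson interval of 4.80 to 18.4 at 95%, which covers counting error only. With GC content and length trends taken out, an alternative chosen after seeing the data, Neat1 was called depleted at -1.53 (adjusted p = 0.119, edgeR, range over the alternatives 0.106 to 0.713).

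Miat (ENSMUSG00000097767, chr5:112213228-112229395, minus strand, a lincRNA with a longest transcript of 9163 nt) was the second most abundant member. Its level was 113 and 167 CPM in the inputs and 97.2 and 109 CPM in the RIP libraries. Both RIP values lay under both inputs, but RIP replicate 2 and input replicate 1 were nearly level. Miat did not pass, at a log2 fold change of -0.44 (SE 0.36, adjusted p = 0.450, edgeR). With GC content and length trends taken out it was -1.19 (adjusted p = 0.0245, edgeR, range over the alternatives 0.0245 to 0.858), which called Miat depleted. Without input replicate 1 it was -0.69 and without input replicate 2 -0.14. Miat is richer in G and C (55.1%) than 77.9% of tested transcripts. The overlapping lincRNA gene Gm26953 had 48 and 24 input counts and 40 and 27 RIP counts.

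The 3 RNAs of the Dlk1-Dio3 domain on chromosome 12 lie in a row on the plus strand, and their ratios did not share a sign. Meg3 (ENSMUSG00000021268, chr12:109541001-109571726, a lincRNA), a maternally expressed RNA known to restrain growth, had 30.9 and 64.5 CPM in the inputs. In the RIP libraries it had 37.6 and 38.1 CPM, between the inputs. Its fold change on the log2 scale was -0.33 (SE 0.41, adjusted p = 0.637, edgeR) and did not pass. Without input replicates 1 and 2 in turn it was -0.77 and 0.29. With GC content and length trends taken out it was -0.90 (adjusted p = 0.0521, edgeR), short of -1 and not called. The RIP libraries differed by 0.019 on the log2 scale and the inputs by 1.06.

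Rian (ENSMUSG00000097451, chr12:109603940-109661716), the host of a cluster of C/D box small nucleolar RNAs, was among the steadiest members. It had 23.8 and 22.4 CPM in the inputs and 33.9 and 37.6 CPM in the RIP libraries. The RIP libraries lay above both inputs, with log2 ratios of 0.51 and 0.75 in the replicates. At a log2 fold change of 0.63 (SE 0.33, adjusted p = 0.235, edgeR), Rian was short of both limits. Its value stayed between 0.58 and 0.80 with any single library left out. The longest Rian transcript is poorer in G and C (35.8%) than nearly all tested transcripts, with 0.551% lower. The 17 small RNA genes nested in Rian (4 miRNA and 13 snoRNA genes) had 19 counts in all 4 libraries together. How a read shared by a nested gene and Rian was counted is not given in the sources used here.

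Mirg (ENSMUSG00000097391, chr12:109729764-109749460, a lincRNA) is the host of a large miRNA cluster. RefSeq (GRCm38.p6) placed 14 hairpins with 26 mature miRNAs inside it. The mature sequences with their seed (bases 2 to 8) in capitals are shown for miR-134-5p, known for its role at dendritic spines, at chr12:109734145-109734166, and for miR-453 and miR-496a-5p, which share the seed GGUUGCC.
miR-134-5p: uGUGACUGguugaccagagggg
miR-453: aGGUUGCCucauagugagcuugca
miR-496a-5p: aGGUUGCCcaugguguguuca
The 15 miRNA genes annotated in Mirg had 5 counts in all over the 4 libraries, at most 1 each in a library, so these libraries hold a value for the host transcript and not for its miRNAs. Mirg itself had 56 and 46 input counts and 21 and 25 RIP counts, which is 1.68 and 1.34 CPM against 0.832 and 1.04 CPM. Both RIP values lay below both inputs. Mirg did not pass, at a log2 fold change of -0.69 (SE 0.52, adjusted p = 0.417, edgeR).

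The paternally expressed RNAs, Kcnq1ot1 and Peg13, had fold changes of opposite sign. Kcnq1ot1 (ENSMUSG00000101609, chr7:143203458-143296549, minus strand), which silences genes of its domain in cis, had 60 and 161 input counts and 27 and 51 RIP counts. These were 1.80 and 4.69 CPM against 1.07 and 2.12 CPM, and RIP replicate 2 lay above input replicate 1. Kcnq1ot1 did not pass, at a log2 fold change of -1.03 (SE 0.57, adjusted p = 0.268, edgeR). Without input replicate 1 it was -1.56 and called, and without input replicate 2 it was -0.18. The value turned on the RIP libraries as well, at -0.55 without RIP replicate 1 and -1.54 without RIP replicate 2, not called in either. Over the alternatives that kept all 4 libraries its adjusted p ran from 0.213 to 0.729.

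Peg13 (ENSMUSG00000106847, chr15:72805600-72810324, minus strand, an unspliced RNA of 4725 nt) lies in an intron of Trappc9, which encodes a subunit of a membrane trafficking complex, on the same strand. It had 372 and 283 input counts and 572 and 548 RIP counts. These were 11.2 and 8.25 CPM against 22.7 and 22.8 CPM, with means of 9.70 ± 2.06 (SD, n = 2) in the inputs and 22.7 ± 0.0782 (SD, n = 2) in the RIP libraries. Both RIP values were well above both inputs. Peg13 had a log2 fold change of 1.23 (SE 0.34, adjusted p = 0.0491, edgeR), a 2.34-fold higher level, and the replicates gave 1.02 and 1.46.

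The direction of Peg13 was the same with any library left out (1.02 to 1.46), while its place relative to the limits was narrow. With the replicate number as a block the adjusted p was 0.0610 at a log2 fold change of 1.24 (edgeR). With GC content and length trends taken out the log2 fold change was 0.88 (adjusted p = 0.0394, edgeR), under the limit of 1. Over the alternatives that kept all 4 libraries its adjusted p ran from 0.0118 to 0.0810, and without RIP replicate 1 or 2 it was 0.317 or 0.312 (edgeR). Trappc9 had 101 and 70 input counts and 102 and 127 RIP counts, a log2 fold change of 0.88 (SE 0.41, adjusted p = 0.192, edgeR), and was called enriched without input replicate 1 (1.19). Per length, Peg13 was above its host in each library in FPKM (fragments scaled by the authors for length and library size). It had 1.58 to 1.89 FPKM against 0.287 to 0.378 in the inputs, and 4.27 to 5.70 against 0.733 to 0.750 in the RIP libraries. A read in the intron of unspliced Trappc9 RNA that falls on Peg13 cannot be told apart from a read of Peg13.

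Tug1 and Six3os1 are the members studied for retinal development. Tug1 (ENSMUSG00000056579, chr11:3639785-3649673, minus strand) had 3.72 and 16.2 CPM in the inputs and 18.8 and 19.1 CPM in the RIP libraries. Input replicate 1 was far below the other 3 libraries, and both RIP values lay above both inputs. Tug1 did not pass, at a log2 fold change of 0.93 (SE 0.59, adjusted p = 0.330, edgeR), with 2.33 in replicate 1 and 0.24 in replicate 2. With the replicate block it was 1.27 (adjusted p = 0.0694, edgeR) and called enriched. With GC content and length trends taken out it was 1.21 (adjusted p = 0.0302, edgeR) and also called. Over the alternatives that kept all 4 libraries its adjusted p ran from 0.0302 to 0.495.

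As for Malat1, a single input library decided the value of Tug1. Without input replicate 1 its log2 fold change was 0.22, and without input replicate 2 it was 2.34. The inputs differed 4.36-fold, and 98 of these 6858 genes (1.43%) were wider. Tug1 (37.9% G and C) is poorer in G and C than all but 2.08% of tested transcripts. Annotated genes that overlap Tug1 are the protein-coding gene Morc2a, with 200 and 188 input counts and 191 and 149 RIP counts, and the small RNA gene Gm27517, with 20 and 48 input counts and 42 and 2 RIP counts. Morc2a was nearly level between the inputs, Gm27517 was lower in input replicate 1, as Tug1 was, and neither gene passed the test of RIP against input, Gm27517 being called depleted without RIP replicate 1 (-3.46).

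**Figure D4:**
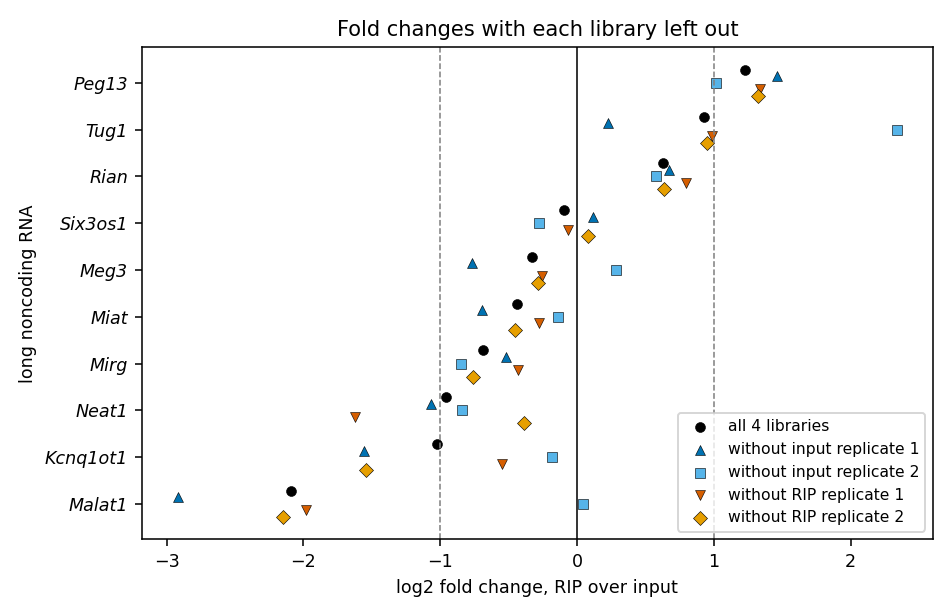
Log2 fold change of RIP over input (x axis) for each member (y axis), fitted over all 4 libraries (circles) and with each library left out in turn, with dashed lines at -1 and 1. Peg13 stays between 1.02 and 1.46, while Malat1 moves from -2.09 to 0.046 and Tug1 from 0.93 to 2.34 without input replicate 2.

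Six3os1 (ENSMUSG00000093460, chr17:85600651-85618398, minus strand) was nearly level between RIP and input. It had 61.2 and 46.8 CPM in the inputs and 53.3 and 48.0 CPM in the RIP libraries, and the groups overlapped. Its log2 fold change was -0.09 (SE 0.34, adjusted p = 0.884, edgeR) and turned to 0.26 with library size alone. With GC content and length trends taken out it was -0.57 (adjusted p = 0.124, edgeR), also not called. Six3, the retina and forebrain transcription factor gene it overlaps on the opposite strand, had 2354 and 1507 input counts and 396 and 232 RIP counts. Six3 was depleted, at a log2 fold change of -2.18 (SE 0.42, adjusted p = 0.0127, edgeR). The difference between Six3os1 and Six3 was not tested. The library kit keeps strand, but the strand setting used for counting is not given in the sources used here.

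Per length the members spanned a wide range in FPKM, and their order was similar in each library. The FPKM values were not all scaled by the longest transcript. From counts and FPKM, with total counts as library size, the implied length was 19585 nt for Rian and 12730 nt for Six3os1. Their longest transcripts had 8089 and 5601 nt. For Peg13 the implied length was 5051 nt and the longest transcript 4725 nt. Orders in FPKM hold at the implied lengths alone. In the inputs Malat1 led with 41.3 and 367 FPKM, followed by Miat with 9.76 and 16.3 and Six3os1 with 4.12 and 3.56. Meg3 (1.37 and 3.23 FPKM), Peg13 (1.89 and 1.58), Rian (1.04 and 1.11) and Tug1 (0.356 and 1.76) followed. Their ranges overlapped between neighbours, except those of Peg13 and Rian. The order of Peg13 and Rian rests on the implied length of Rian. In CPM, Rian lay above Peg13 in each input (23.8 and 22.4 against 11.2 and 8.25), with longest transcripts of 8089 and 4725 nt. Mirg (0.179 and 0.159 FPKM), Neat1 (0.0479 and 0.0642) and Kcnq1ot1 (0.0169 and 0.0502) were lowest, the last 2 overlapping.

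In the RIP libraries Malat1 (60.1 and 49.96 FPKM) and Miat (12.4 and 10.4 FPKM) again led without overlap. Peg13 (5.70 and 4.27 FPKM) moved to the third place in each RIP library, and its range overlapped that of Six3os1 (5.31 and 3.57). This place rests on the implied length of 12730 nt for Six3os1. In CPM, Six3os1 lay above Peg13 in each RIP library (53.3 and 48.0 against 22.7 and 22.8), with longest transcripts of 5601 and 4725 nt. Tug1 (2.67 and 2.03 FPKM), Meg3 (2.46 and 1.86) and Rian (2.19 and 1.82) followed with overlapping ranges. Mirg (0.117 and 0.111 FPKM) was above Neat1 (0.0547 and 0.0173) and Kcnq1ot1 (0.0148 and 0.0221), which overlapped. Peg13 was higher than 78.0% and 74.9% of tested genes in the inputs and than 92.7% and 92.6% in the RIP libraries.

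The members were set beside other long noncoding RNAs. Of 8921 other genes annotated as long noncoding, 674 were tested, of which 26 were enriched (3.86%) and 154 depleted (22.8%), with a median log2 fold change of -0.64. This median was -0.64 also with the 23 genes at 0 in both RIP libraries and the 1 gene at 0 in both inputs set to their bound at 3 counts over the group. Protein-coding genes had 10.3% enriched and 14.7% depleted, with a median of 0.04.

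A list of 43 other well-known long noncoding RNAs, of which 24 were tested, had 2 enriched (8.33%, beside 9.43% of all tested genes) and 8 depleted (33.3%, beside 17.2%), with a median of -0.72. The enriched RNAs were 2900097C17Rik, the mouse counterpart of the cytoplasmic RNA NORAD, and the imprinted antisense RNA Nespas (1.59, adjusted p = 0.0686, edgeR). 2900097C17Rik had 1122 and 2461 input counts and 5937 and 6241 RIP counts, and its log2 fold change was 2.23 (adjusted p = 0.0144, edgeR). Xist, which coats the inactive X chromosome, had 330 and 504 input counts and 77 and 39 RIP counts, and its log2 fold change was -2.39 (adjusted p = 0.0116, edgeR). The miRNA host Mir124-2hg (-1.83, adjusted p = 0.0122), Epb41l4aos (-1.999, adjusted p = 0.0317) and Sox2ot (-1.99, adjusted p = 0.150) were also depleted. Sox2ot had 34 and 196 input counts and 32 and 10 RIP counts, and its log2 fold change was -2.75 without input replicate 1 and -0.28, no longer called, without input replicate 2. Without RIP replicate 2, Sox2ot and Nespas were not called (-1.37 and 1.24).

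Lists of protein partners, neighbours and m6A genes were read from the same fit. Of 31 mRNAs for paraspeckle and nuclear speckle proteins, all tested, 4 were enriched (12.9%, beside 9.43% of all tested genes) and 7 depleted (22.6%, beside 17.2%), with a median of -0.66. Enriched were Ss18l1 (2.12, adjusted p = 0.0106, edgeR) and the speckle core gene Son (1.38, adjusted p = 0.0419, edgeR). The paraspeckle gene Pspc1 (1.13, adjusted p = 0.0612, edgeR) and the splicing factor gene Srsf1 (1.10, adjusted p = 0.168, edgeR) were enriched at the unadjusted limit alone. The largest falls were those of Taf15 (-2.36), Rbm7 (-1.997), Srsf2 (-1.68) and Srrm1 (-1.53), all log2 fold changes. Their adjusted p values were 0.0582, 0.01885, 0.0154 and 0.0256 in that order (edgeR). Taf15 had 274 and 1524 input counts and 154 and 99 RIP counts, and its log2 fold change was -3.12 without input replicate 1 and -0.69, no longer called, without input replicate 2. Srsf1 was at 0.85 without input replicate 1, at 0.32 without RIP replicate 2 and at 0.97 with the replicate block, in each case not called. Pspc1 lost its call without either RIP library (1.14 and 1.30), and Srrm1 (-1.25) and Taf15 (-2.07) without RIP replicate 2.

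Of 22 genes in the imprinted domains of the members, 15 were tested, and their median log2 fold change was -0.36. They had 2 enriched (13.3%) and 4 depleted (26.7%), beside 9.43% and 17.2% of all tested genes. Osbpl5 (1.62, adjusted p = 0.0503, edgeR) and Ptk2 (1.33, adjusted p = 0.0537, edgeR) were the enriched genes. The depleted genes included the growth factor gene Igf2 (-2.01, adjusted p = 0.00758, edgeR) and the noncoding H19 (-1.002, adjusted p = 0.0846, edgeR). Dio3 (-1.76, adjusted p = 0.0612, edgeR), which encodes a deiodinase that inactivates thyroid hormone, was also depleted. H19 was no longer called without input replicate 1 (-0.83), without either RIP library (-0.94 and -0.87) or with the replicate block (-0.99), Ptk2 without RIP replicate 1 (1.296), and Dio3 without RIP replicate 2 (-1.24).

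Of 14 genes of m6A writers, readers and erasers, 2 were enriched (14.3%) and 3 depleted (21.4%), beside 9.43% and 17.2% of all tested genes. Alkbh5 (2.05, adjusted p = 0.00817, edgeR), which encodes an m6A eraser, was enriched. So was Rbm15b (1.002, adjusted p = 0.105, edgeR), which encodes a subunit of the writer complex. The depleted genes were the writer complex genes Zc3h13 (-2.37, adjusted p = 0.0519) and Mettl14 (-1.43, adjusted p = 0.0685) and Ythdc1 (-1.37, adjusted p = 0.122, edgeR), which encodes the nuclear m6A reader, and the list's median was 0.35. Their inputs stood apart in the same direction, with 105 and 478 counts for Zc3h13, 118 and 224 for Mettl14 and 133 and 370 for Ythdc1. Without input replicate 2 their log2 fold changes were -0.94, -0.93 and -0.49, none of them called, and Rbm15b was at 0.72 and not called. Zc3h13 lost its call also without RIP replicate 1 (-2.05), and Mettl14 (-1.39 and -1.34), Ythdc1 (-1.60 and -1.08) and Rbm15b (0.998 and 1.21) without either RIP library.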

How the data were processed

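Input and anti-YTHDF2 RIP libraries of P0 retina were sequenced from a stranded kit. The authors deposited counts per gene, not normalized, and FPKM values, scaled by the authors for length and library size. The submitters' processing notes name STAR 2.5, HTSeq and GRCm38. No per-sample column was left unused. Gene models, with the longest transcript per gene, were those of GENCODE M21 (GRCm38), where 52403 of 52550 identifiers were found.

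Counts were tested in R 4.3.3 with edgeR 4.0.16 (filterByExpr with minimum count 10 and minimum total 15, TMM, glmQLFit, glmQLFTest, Benjamini-Hochberg). Standard errors were derived from the fold change and F. Per-replicate log2 ratios used a prior of 0.5 counts. FPKM values were compared only as levels per length. Alternatives were DESeq2 1.42.0, limma 3.58.1 after log2 transformation of FPKM with a pseudocount of 0.1 or 1, with and without a filter at a mean FPKM of 0.1, other scalings and filters, edgeR's exact test, the replicate block, and each library left out. Trends on GC content and length (mgcv 1.9.3, basis size 8), with and without the block, were chosen after seeing the data. The fits were tested on simulated counts with the same dispersion for every gene and no trend on GC content or length. That spread was not matched to these libraries, so the simulation does not give error rates for them.

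The series design gives each replicate an input and a pulldown, so equal numbers mark a shared replicate. The input and RIP differences between replicates had a Spearman correlation of -0.0317 across tested genes. The libraries are labelled as replicates, and p-values measure the spread between 2 libraries per group. The chi-square per degree of freedom between replicates, with libraries scaled by their total counts, was 90.6 for the inputs and 15.1 for RIP. Both values exceed counting error alone, but differences in scaling and genes with many counts add to them. They do not rank replicate error against counting error for single members.

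The members and gene lists were chosen with earlier results of these data known. Named beside the members are the up to 4 strongest enriched and depleted genes of each list with a mean of at least 1 CPM, genes overlapping a member with at least 20 counts in all, and genes marked in the text as named after their values were seen. Genes tested here with the highest level among other long noncoding RNAs are given in the closing section.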

Additional observations from a re-analysis of the deposited data

How the results depend on the processing

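Of 106 values of single members under the alternatives that kept all libraries, 92 kept their direction and their side of the limits, 5 lost a call, 2 gained one and 7 changed sign. Under the trends on GC content and length, chosen after seeing the data, 12 of 20 kept both, 2 lost and 6 gained a call. The changes of sign were all in members with no call. Six3os1 was at 0.26 with library size alone, 0.00087 with no filter, 0.18 on log2(FPKM + 0.1) with and without a filter and 0.15 on log2(FPKM + 1), and Meg3 at 0.022 on log2(FPKM + 0.1) with and without a filter.

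Depleted members numbered 0 in place of 1 with TMM without small, ribosomal and mitochondrial RNA genes, with DESeq2 and in each limma fit, and 3 with the trends taken out, with and without the block. Enriched members numbered 2 with the replicate block, which added Tug1, and on log2(FPKM + 0.1), where 8 members were tested. The block also took Peg13 past an adjusted p of 0.05. Apart from these changes in Tug1 and Peg13, it changed no call of a member. Over all genes, 2357 were enriched with library size alone, and 386 were enriched and 1055 depleted on log2(FPKM + 1). With the trends taken out 1450 were depleted, and 1405 with the block added. At an adjusted p below 0.05, 79 to 941 genes were higher, beside 474, and 633 to 1876 lower, beside 1333.

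With each library left out in turn, enriched genes numbered 670 to 2097 and depleted genes 1562 to 2610, and members 1 to 2 and 0 to 2. Genes higher at an adjusted p below 0.05 then numbered 8 to 2537 and lower ones 112 to 2766, with a lone library assumed to vary like the other group. Malat1 ran from -2.92 to 0.046, Meg3 from -0.77 to 0.29 and Six3os1 from -0.28 to 0.11. The causes were not tested. With 2 libraries per group the spread between libraries is itself poorly known, and Neat1 and Mirg had at most 56 counts in a library.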

Other observations

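Outside the members, the 5 tested long noncoding genes with the highest level were AY036118, Gm28872, Gm20628, 2900097C17Rik and Gm42418. AY036118 and Gm42418 overlap ribosomal RNA sequence, with log2 fold changes of 0.18 and 0.90, and Gm42418 was called enriched without RIP replicate 1 (1.36). Gm28872 had 8986 and 5245 input counts and 263 and 307 RIP counts, a log2 fold change of -4.19 (SE 0.44, adjusted p = 0.00136, edgeR). Gm20628 had 7972 and 5061 input counts and 835 and 1125 RIP counts, a log2 fold change of -2.28 (SE 0.41, adjusted p = 0.00940, edgeR). Both RIP libraries lay below both inputs in these 2 genes, and each had more input counts than any member but Malat1 and, in input replicate 2, Miat.

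In the table as deposited, 160 genes had exactly 1 count in each of the 4 libraries.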
